A study of Homo sapiens with 12 samples.

Results

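The mRNA levels of 35 genes of cholesterol and fatty acid synthesis were followed in SBC5, a human small cell lung cancer cell line, after olaparib, radiation or both. The genes were taken by symbol: 8 genes of the steps from acetyl-CoA to the isoprenoid chains (ACAT2, HMGCS1, MVK, PMVK, MVD, IDI1, FDPS and GGPS1), 12 genes of the steps from squalene to cholesterol (FDFT1, SQLE, LSS, CYP51A1, TM7SF2, LBR, MSMO1, NSDHL, HSD17B7, EBP, SC5D and DHCR7), 5 genes that control the transcription factors SREBP1 and SREBP2 or encode them (INSIG1, INSIG2, SREBF1, SREBF2 and SCAP), 3 genes of sterol transport and uptake (STARD4, NPC1 and MYLIP) and 7 genes of fatty acid synthesis (ACLY, ACACA, FASN, ELOVL6, SCD, FADS1 and FADS2). Each symbol matched exactly 1 of the 60605 genes of the table, so all 35 were found, and all 35 passed the filter on low counts. The first 20 genes, from ACAT2 to DHCR7, are called the sterol branch below, and the last 7 the fatty acid branch.

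Wild type SBC5 cells, a single line, received 1 µM olaparib, a drug that blocks the poly(ADP-ribose) polymerases of DNA repair, or DMSO alone. Gamma radiation of 4 Gy or none followed 2 hours later, and total RNA was sequenced on day 3. The 4 groups of 3 libraries are vehicle (DMSO, 0 Gy), olaparib (olaparib, 0 Gy), radiation (DMSO, 4 Gy) and combination (olaparib, 4 Gy). The labels do not say that the libraries of a group came from separate cultures, so the p-values measure the spread between libraries, which may be technical.

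Total counts ran from 14.3 to 38.8 in units of 1e6. They were 27 to 34.1 in vehicle and 19.4 to 20.6 in the combination, without overlap. Olaparib 2, olaparib 3 and radiation 3 carried a high background: the summed level of 404 olfactory receptor genes, which are silent in most tissues, was 1897, 2098 and 920.2 CPM (counts per 1e6 counts) there and 354.7 to 501.4 CPM in the other 9. These 3 libraries are shown apart. The tests used the other 9 (vehicle 1 to 3, olaparib 1, radiation 1 and 2, combination 1 to 3). Before scaling, the olfactory receptor level was 354.7 to 432.6 CPM in vehicle and 461.3 to 501.4 CPM in the combination. The part of depth and background in the differences among these 9 libraries alone was not tested. CPM here are scaled by the trimmed mean of M values (TMM), which brought the bulk of genes of the 9 libraries near a common level. In the 3 libraries set apart, genes of at least 10 CPM in vehicle stayed lower on this scale, as given below. The scaling factors moved with treatment, from 0.9165 to 0.9455 in vehicle, 0.9811 in olaparib 1, 0.9999 and 1.015 in the radiation libraries of the fit, and up to 1.057 to 1.085 after both treatments, so results without them are given where they differ. Of the defining markers of small cell lung cancer subtypes, POU2F3 reached at most 1.21 CPM and NEUROD1 at most 3.25 CPM in the 9 libraries, and the neuroendocrine gene INSM1 at most 0.285 CPM. SYP, another neuroendocrine marker, was present, at 20.9 to 27.3 CPM in vehicle and 16.4 to 20.6 CPM in the combination. YAP1, the marker of a further subtype, stood at 118 to 124 CPM in vehicle and 84 to 94.7 CPM in the combination. The summed level of the 8 subtype and neuroendocrine markers was 141 to 153 CPM in vehicle and 102 to 117 CPM in the combination. Its part in the results was not tested. Summed markers of fibroblasts (6 genes) were at 18.5 to 19.5 CPM in vehicle and 16.1 to 19.9 CPM in the combination, and those of endothelium (5 genes) at 1.55 to 3.64 CPM and 1.75 to 1.81 CPM. Summed markers of leukocytes (6 genes) were at 81.6 to 98.9 CPM in vehicle and 81.6 to 101 CPM in the combination. Most of that sum was CD68, at 78.1 to 97 CPM in vehicle and 79.1 to 100 CPM in the combination. The T cell marker CD3E, of the same list, reached at most 0.143 CPM in the 9 libraries. In bulk RNA, fewer cells of a type and less RNA per cell cannot be told apart.

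Cells make cholesterol and fatty acids from acetyl-CoA. Most enzymes of both routes are encoded by targets of the SREBPs, which are made as inactive precursors held in the endoplasmic reticulum. When membrane sterols fall, SCAP escorts the precursor to the Golgi, where it is cut and its free end enters the nucleus. When sterols are plentiful, the INSIG proteins hold SCAP back. SREBP2 is best known for the sterol genes and SREBP1 for the fatty acid genes, and INSIG1, SREBF1 and SREBF2 are SREBP targets themselves. SREBPs bind a sterol regulatory element (SRE), usually together with NF-Y, which binds CCAAT, and Sp1, which binds GC boxes.

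Promoter stretches are shown for SREBF2, INSIG1, STARD4 and MSMO1, which were lower in the combination, and for CYP51A1, which was not, so that these letters can be set beside the values. The 5 genes were chosen after the values were seen. Each stretch is 170 bases long and lies upstream of the gene's start, from RefSeq on GRCh38.p14, and is written on the gene's strand. Capitals mark the SRE letters TCACNCCAC and the NF-Y letters CCAAT, either of which may read on the other strand (ATTGG for CCAAT).
SREBF2: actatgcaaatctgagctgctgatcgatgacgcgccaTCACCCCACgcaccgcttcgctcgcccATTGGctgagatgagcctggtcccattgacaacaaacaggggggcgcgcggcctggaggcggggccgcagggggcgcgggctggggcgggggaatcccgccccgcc
INSIG1: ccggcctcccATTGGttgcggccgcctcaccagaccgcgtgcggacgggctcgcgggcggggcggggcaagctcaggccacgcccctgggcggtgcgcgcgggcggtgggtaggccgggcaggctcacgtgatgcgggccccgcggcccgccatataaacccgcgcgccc
STARD4: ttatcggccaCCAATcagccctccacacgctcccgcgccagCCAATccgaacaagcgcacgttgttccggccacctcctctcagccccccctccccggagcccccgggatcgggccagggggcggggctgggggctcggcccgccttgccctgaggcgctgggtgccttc
MSMO1: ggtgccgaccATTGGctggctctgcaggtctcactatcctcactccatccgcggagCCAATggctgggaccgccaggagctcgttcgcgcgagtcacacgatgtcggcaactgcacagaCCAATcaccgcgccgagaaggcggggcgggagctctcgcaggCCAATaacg
CYP51A1: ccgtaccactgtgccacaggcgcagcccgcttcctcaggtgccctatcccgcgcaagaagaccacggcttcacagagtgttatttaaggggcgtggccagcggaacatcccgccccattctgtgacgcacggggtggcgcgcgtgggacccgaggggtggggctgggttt
SREBF2 lies on chromosome 22 (chr22:41832935-41833104, + strand), INSIG1 on chromosome 7 (chr7:155297698-155297867, + strand), STARD4 on chromosome 5 (chr5:111512537-111512706, - strand), MSMO1 on chromosome 4 (chr4:165327474-165327643, + strand) and CYP51A1 on chromosome 7 (chr7:92134478-92134647, - strand). The SREBF2 stretch holds the SRE letters, starting 133 bases before the gene's start, and 1 NF-Y box nearby. The MSMO1 stretch holds 4 NF-Y boxes, that of STARD4 holds 2 and that of INSIG1 holds 1, while the CYP51A1 stretch holds none. In the 250 bases before the start, NF-Y boxes were also present in MVK, NSDHL, EBP and MVD, which were not called lower. None was present there in SREBF1, which was called lower.

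Across the genes, RefSeq gave promoter windows for 31 of the 35, some with more than 1 start, which made 43 windows. ACAT2, FDFT1, SQLE and FASN had none. In the 250 bases before each start and on both strands, TCACNCCAC was present in 1 of the 43 windows (2.33%, SREBF2) and in 0.883% of all 35116 windows of the table. CCAAT was present in 25 of 43 windows (58.1%) and in 32.0% of all windows. The GC box GGGCGG was present in 37 of 43 windows (86.0%) and in 42.6% of all windows. The 8 genes with a window that fell in the combination, described below, had 9 windows, of which 8 held CCAAT. Of the 34 windows of the other genes, 17 held it. Counted by gene, 7 of these 8 and 14 of the 23 others held CCAAT in at least 1 window. These shares describe letters and were not matched on base composition, a match is no shown site, and the lack of a match says only that these letters are not in the window.

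Part of the pathway was lower in the combination, and none of it was called higher, in the 9 libraries. Against vehicle, 11 of 35 genes fell and 0 rose at an adjusted p under 0.05 in edgeR's quasi-likelihood test, where 3.26% of all 30967 genes tested fell and 1.53% rose. The 27 of the 35 genes that averaged at least 10 CPM held all 11 calls, and of all 8351 genes at that level 11.2% fell. The log2 change was negative for 31 of 35 genes, with a median of -0.25 beside 0.02 for all genes tested. In 18 genes every combination library lay below every vehicle library, and in 0 every one lay above, beside 10.4% and 9.15% of all genes. Without scaling factors the median of all genes moved to 0.22, 22 of 35 genes were negative, and 7 fell and 1 rose (INSIG2). Under that setting 1.03% of all genes fell and 7.35% rose. Relative to the median of all genes, the median of the 35 was -0.26 with and -0.26 without scaling factors.

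**Figure D1:**
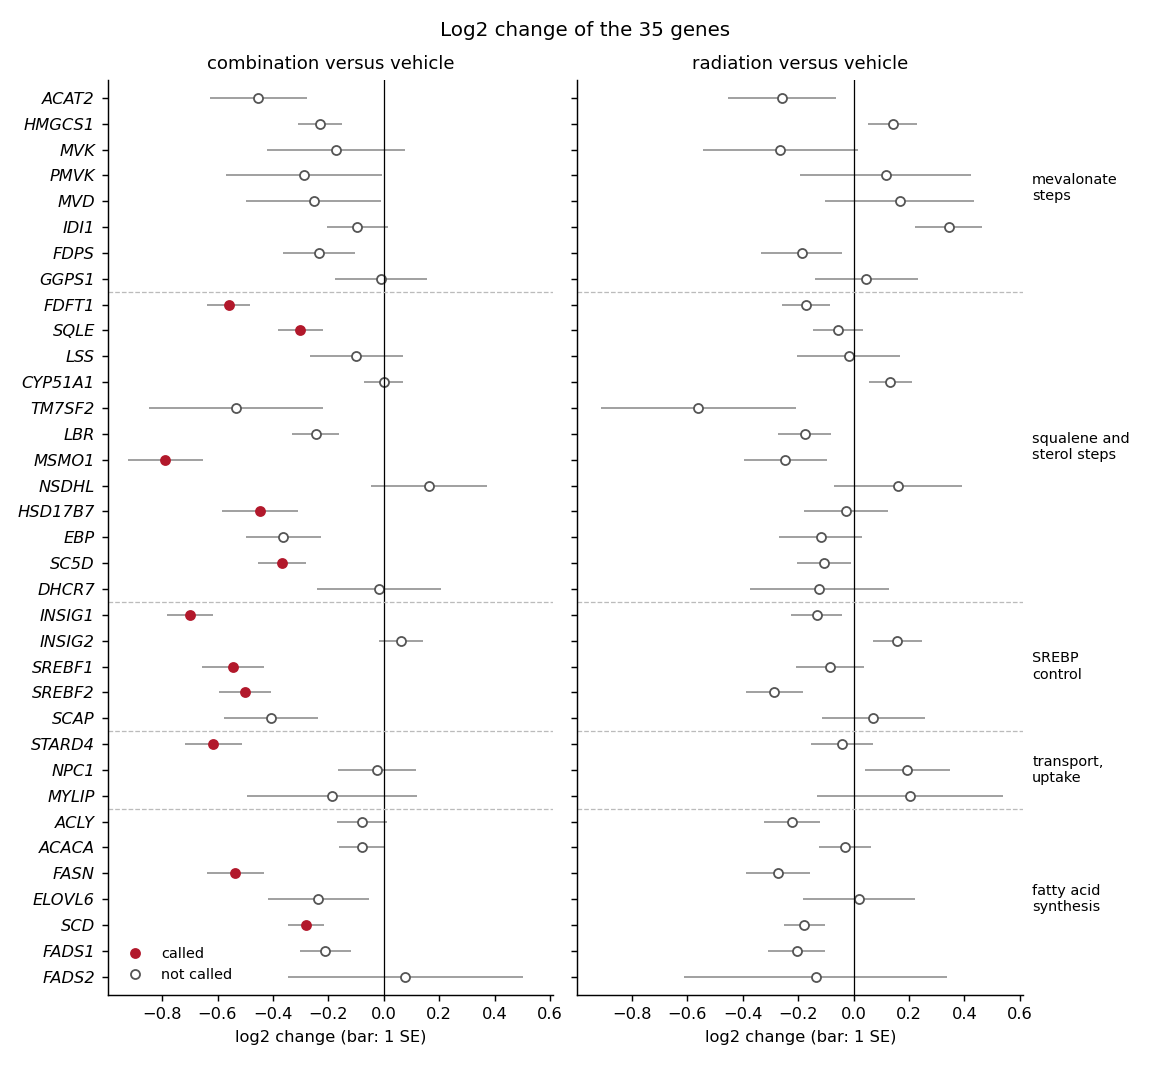
Log2 change of each of the 35 genes against vehicle, for the combination (left) and for radiation (right), with bars of 1 standard error (SE) and filled points for genes past an adjusted p of 0.05. The 11 filled points all lie left of 0 in the combination panel and none is filled in the radiation panel.

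Of the 5 SREBP control genes, 3 fell in the combination, with a median log2 change of -0.50. INSIG1, which encodes the protein that retains SCAP and is among the most sterol-responsive SREBP targets, was at 101, 108 and 96.6 CPM in vehicle 1 to 3, 95.9 in olaparib 1, 99.8 and 85.6 in radiation 1 and 2, and 59.4, 63.6 and 64.9 in combination 1 to 3. All 3 combination libraries lay below all 6 others of the fit. Its mean went from 102 CPM (SD 5.47, n = 3) to 62.6 CPM (SD 2.86, n = 3), and so fell by 38.5% (log2 -0.70, SE 0.0826, adjusted p = 1.05e-09). SE is the log2 change divided by the square root of the F statistic.

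SREBF2, the gene of SREBP2, was at 59.2, 66.1 and 68.6 CPM in vehicle, 58.5 in olaparib 1, 53.2 and 52.8 in radiation 1 and 2, and 42.3, 49.1 and 45.6 in the combination (log2 -0.50 against vehicle, SE 0.0932, adjusted p = 9.25e-05). The radiation libraries lay between vehicle and combination. SREBF1, the gene of SREBP1, was at 43.2, 36.7 and 49.5 CPM in vehicle, 49.9 in olaparib 1, 43.1 and 38.1 in radiation 1 and 2, and 24.8, 31.2 and 32.6 in the combination (log2 -0.55, SE 0.112, adjusted p = 0.000633). The SREBF1 libraries of radiation lay within the range of vehicle, and those of the combination below it.

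The escort protein gene SCAP was at 14.6, 12.3 and 13.6 CPM in vehicle, 17.5 in olaparib 1, 15.6 and 12.7 in radiation 1 and 2, and 8.91, 11.9 and 9.64 in the combination. Its combination libraries lay below those of vehicle, but the difference did not pass the test (log2 -0.41, SE 0.17, adjusted p = 0.2). INSIG2, the second retention protein and not a target of the same kind as INSIG1, was at 113, 101 and 115 CPM in vehicle, 114 in olaparib 1, 130 and 115 in radiation 1 and 2, and 121, 104 and 120 in the combination, with overlapping groups (log2 0.06, SE 0.0797, adjusted p = 0.854). Without scaling factors INSIG2 was called higher (log2 0.26, adjusted p = 0.0183), while INSIG1 (log2 -0.50), SREBF1 (-0.34) and SREBF2 (-0.30) were still called lower.

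**Figure D2:**
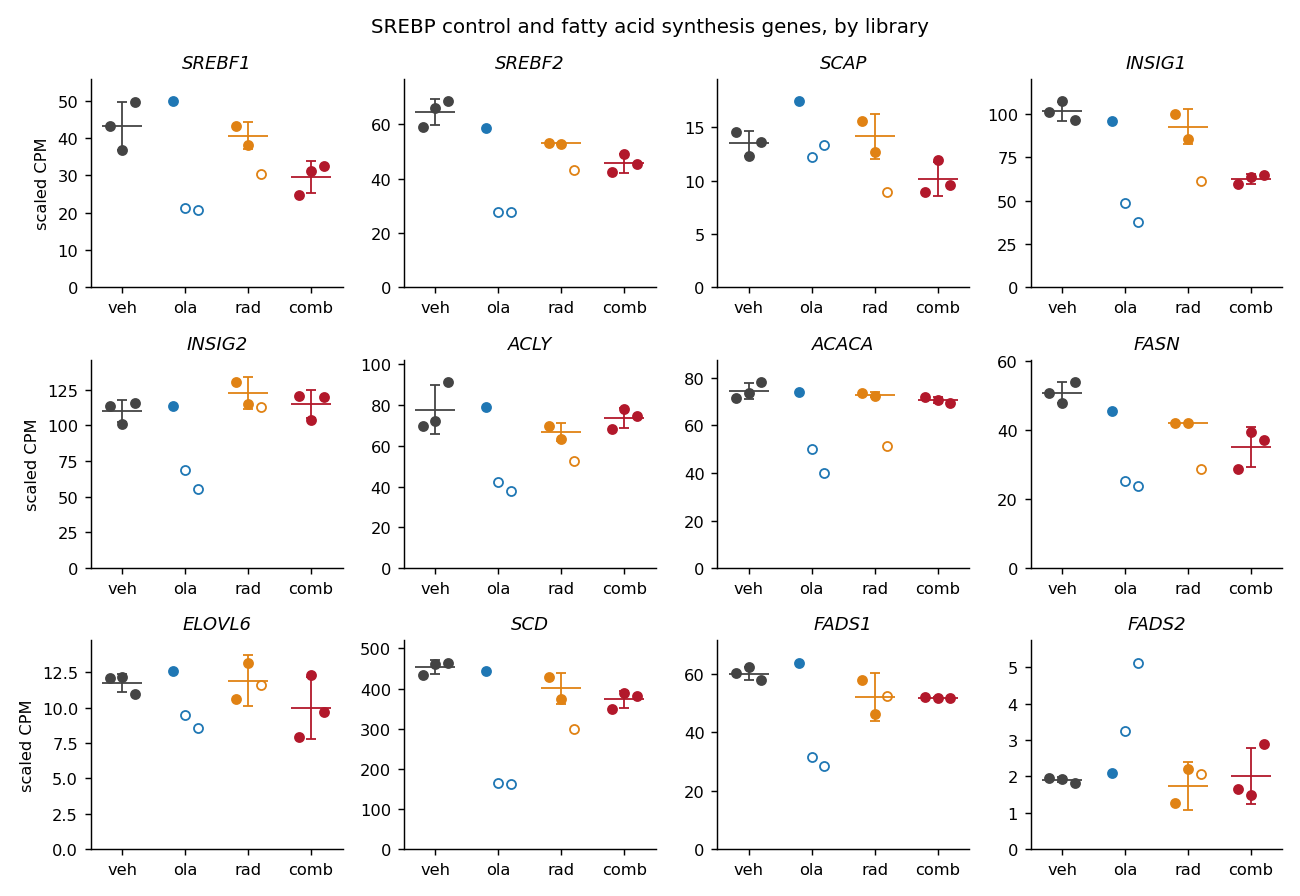
Scaled CPM of the 5 SREBP control and 7 fatty acid synthesis genes in each library by group (veh, vehicle; ola, olaparib; rad, radiation; comb, combination), with the mean and SD of the filled points where a group has more than 1; open points are the 3 libraries with high background, outside the mean. INSIG1, SREBF1, SREBF2, FASN and SCD, and also SCAP and FADS1, which were not called, are lower in every combination library than in every vehicle library. INSIG2, ACLY, ACACA, ELOVL6 and FADS2 overlap.

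Among the 8 genes of the first steps, none passed the test in the combination against vehicle. All 8 log2 changes were negative (median -0.23), and 2 had an unadjusted p under 0.05, beside 4445 of all 30967 genes. DESeq2 and limma-voom also called none of the 8. The largest difference was that of ACAT2, which joins 2 acetyl-CoA units: 11.3, 15.6 and 14.8 CPM in vehicle and 9.35, 10.2 and 11 in the combination (log2 -0.45, SE 0.176, adjusted p = 0.151). ACAT2 overlaps the gene TCP1 on the genome, so its reads are less certain.

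HMGCS1, which makes HMG-CoA, was at 123, 135 and 123 CPM in vehicle, 111 in olaparib 1, 150 and 129 in radiation 1 and 2, and 104, 98.9 and 122 in the combination. Its highest combination library came close to the lowest of vehicle (log2 -0.23, SE 0.0801, adjusted p = 0.087). IDI1, which interconverts the isoprenoid units, was at 35.5, 42.2 and 37.7 CPM in vehicle, 39.3 in olaparib 1, 53.9 and 43.6 in radiation 1 and 2, and 29.9, 41 and 37 in the combination (log2 -0.10 against vehicle, adjusted p = 0.828). The other 5 ranged from -0.29 (PMVK) to -0.01 (GGPS1) on the log2 scale, at means of 4.58 CPM for PMVK to 25.9 CPM for FDPS in vehicle.

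Of the 12 genes of the squalene and sterol steps, 5 fell in the combination, with a median log2 change of -0.33. FDFT1, the squalene synthase that commits the route to sterols, was at 135, 160 and 139 CPM in vehicle, 130 in olaparib 1, 134 and 122 in radiation 1 and 2, and 98.6, 98.6 and 97.3 in the combination (log2 -0.56, SE 0.0777, adjusted p = 1.39e-07). The 3 combination libraries lay within 2 CPM of each other and below all 6 others. SQLE, the epoxidase of the next step, was at 95.4, 103 and 93.6 CPM in vehicle, 93.4 in olaparib 1, 98.2 and 89.2 in radiation 1 and 2, and 81.7, 75.2 and 80.1 in the combination (log2 -0.30, SE 0.0806, adjusted p = 0.012). The SQLE call was lost without vehicle 2 (adjusted p = 0.122) or combination 2 (adjusted p = 0.0656), and without scaling factors (log2 -0.10).

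MSMO1, which removes methyl groups from the sterol ring, showed the largest fall of the 35: 29, 31.9 and 29.7 CPM in vehicle, 27.8 in olaparib 1, 28.9 and 22 in radiation 1 and 2, and 21.3, 17.6 and 13.5 in the combination (log2 -0.79, SE 0.136, adjusted p = 3.71e-05). The highest combination library lay just under radiation 2. SC5D, the desaturase of a late step, was at 81.1, 82.4 and 75.7 CPM in vehicle, 77.2 in olaparib 1, 81.5 and 66.5 in radiation 1 and 2, and 60.6, 59.4 and 65.4 in the combination (log2 -0.37, SE 0.0865, adjusted p = 0.00311). Its call was lost without scaling factors (log2 -0.17, adjusted p = 0.268).

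HSD17B7, the sterol ketone reductase, was at 27.3, 24.5 and 20.2 CPM in vehicle, 20.4 in olaparib 1, 21.5 and 25.5 in radiation 1 and 2, and 19.7, 16 and 17.1 in the combination (log2 -0.45, SE 0.138, adjusted p = 0.0418). Its call held under 10 of 20 alternatives. Leaving out vehicle 1, vehicle 2, olaparib 1, combination 2 or combination 3 each ended it (adjusted p = 0.296, 0.144, 0.0533, 0.166 and 0.126). The pseudogene HSD17B7P2 held 2.33 to 5.83 CPM in the 9 libraries, so reads may be split between gene and copy.

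CYP51A1, the demethylase of lanosterol, did not follow these genes. It was at 290, 291 and 257 CPM in vehicle, 263 in olaparib 1, 324 and 289 in radiation 1 and 2, and 288, 254 and 296 in the combination (log2 0.00, SE 0.0704, adjusted p = 1), with overlapping groups. Without scaling factors the CYP51A1 value was 0.20 (adjusted p = 0.0556). The remaining 6 were not called. EBP (log2 -0.36, adjusted p = 0.128) and LBR (log2 -0.25, adjusted p = 0.0842) had combination libraries below those of vehicle, and TM7SF2 (log2 -0.53, SE 0.314, adjusted p = 0.476), LSS, NSDHL and DHCR7 overlapped. TM7SF2, NSDHL and DHCR7 averaged under 10 CPM.

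**Figure D3:**
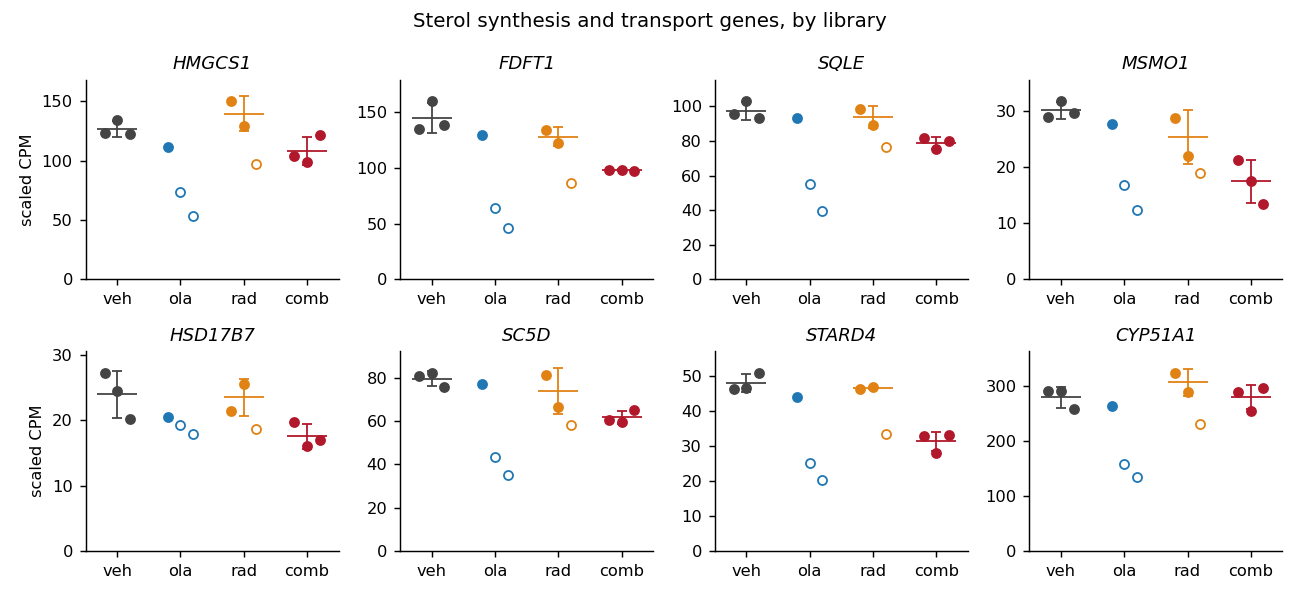
Scaled CPM of 8 sterol synthesis and transport genes in each library by group (abbreviations, bars and open points as for the control and fatty acid genes). FDFT1, SQLE, MSMO1, HSD17B7, SC5D and STARD4, and also HMGCS1, which was not called, are lower in every combination library than in every vehicle library. CYP51A1 is not.

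Among the 3 genes of transport and uptake, STARD4, a carrier that moves cholesterol between membranes, fell. It was at 46.2, 46.3 and 50.8 CPM in vehicle, 43.9 in olaparib 1, 46.2 and 46.6 in radiation 1 and 2, and 32.6, 28 and 33 in the combination (log2 -0.62, SE 0.102, adjusted p = 9.45e-06). The vehicle, olaparib 1 and radiation libraries spanned 43.9 to 50.8 CPM, and the combination libraries stood apart below them. The antisense gene STARD4-AS1 held 7.67 to 13.3 CPM in the 9 libraries. NPC1, which exports cholesterol from lysosomes (log2 -0.02, adjusted p = 0.981), and MYLIP, a ubiquitin ligase that removes lipoprotein receptors and is induced by sterols through LXR (log2 -0.19, SE 0.308, adjusted p = 0.9), were not called.

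In the fatty acid branch, 2 of 7 genes fell in the combination. FASN, the synthase that builds palmitate, was at 50.8, 47.9 and 54.1 CPM in vehicle, 45.6 in olaparib 1, 42.2 and 42.2 in radiation 1 and 2, and 28.6, 39.5 and 37.2 in the combination (log2 -0.54, SE 0.104, adjusted p = 0.000203). The radiation libraries again lay between the groups. SCD, the desaturase that makes oleate, was at 433, 462 and 465 CPM in vehicle, 443 in olaparib 1, 428 and 374 in radiation 1 and 2, and 350, 388 and 381 in the combination (log2 -0.28, SE 0.0661, adjusted p = 0.00303). Its combination libraries lay below vehicle but overlapped radiation, and the call was lost without combination 1 (adjusted p = 0.0574) or without scaling factors (log2 -0.08).

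The genes that supply the precursors did not pass the test. ACLY, which releases acetyl-CoA from citrate, was at 69.5, 72.2 and 91.3 CPM in vehicle, 79 in olaparib 1, 69.7 and 63.5 in radiation 1 and 2, and 68.4, 78 and 74.5 in the combination (log2 -0.08, SE 0.0893, adjusted p = 0.828). ACACA, the carboxylase that makes malonyl-CoA, was at 71.6, 73.6 and 78.3 CPM in vehicle, 74 in olaparib 1, 73.5 and 72.3 in radiation 1 and 2, and 71.7, 70.5 and 69.4 in the combination (log2 -0.08, SE 0.0832, adjusted p = 0.805). Both overlapped between the groups.

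The elongase gene ELOVL6 was at 12.1, 12.1 and 11 CPM in vehicle, 12.6 in olaparib 1, 10.6 and 13.2 in radiation 1 and 2, and 7.89, 12.3 and 9.69 in the combination (log2 -0.24, SE 0.183, adjusted p = 0.667). FADS1, a desaturase of polyunsaturated fatty acids, was at 60.3, 62.3 and 57.8 CPM in vehicle, 63.9 in olaparib 1, 57.9 and 46.4 in radiation 1 and 2, and 52.3, 52 and 51.7 in the combination. The FADS1 combination libraries lay below vehicle, and the difference missed the threshold (log2 -0.21, SE 0.0929, adjusted p = 0.243). FADS2, the desaturase of the preceding step, was at 1.96, 1.93 and 1.82 CPM in vehicle, 2.1 in olaparib 1, 1.27 and 2.2 in radiation 1 and 2, and 1.66, 1.48 and 2.9 in the combination (log2 0.08, SE 0.424, adjusted p = 0.98), a level at which a change of this size was not detectable.

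The sterol and fatty acid branches had similar medians in the combination. Per library, the median log2 ratio to the vehicle mean was -0.31, -0.25 and -0.26 for the 20 sterol genes in combination 1 to 3, and -0.20, -0.21 and -0.22 for the 7 fatty acid genes. The 8358 genes of at least 10 CPM in vehicle had medians of -0.06, -0.06 and -0.06 in these libraries. Of the sterol branch 5 of 20 genes fell, and of the fatty acid branch 2 of 7. The median log2 change from the fit was -0.25 for the sterol and -0.21 for the fatty acid branch. Without scaling factors these medians were -0.05 and -0.01, and relative to the median of all genes -0.26 and -0.23. The difference between branches was not tested, because genes are not replicates of a condition.

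In radiation the order of the branches was the other way round, but the order varied among the vehicle libraries too. The sterol and fatty acid medians were -0.07 and -0.004 in vehicle 1, 0.06 and 0.02 in vehicle 2, and 0.02 and 0.04 in vehicle 3. The sterol medians were -0.01 and -0.17 in radiation 1 and 2, and the fatty acid medians -0.14 and -0.27. In olaparib 1 they were -0.07 and 0.02. The 5 control genes had medians of -0.61, -0.39 and -0.48 in combination 1 to 3, below those of both branches in each of these libraries.

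**Figure D4:**
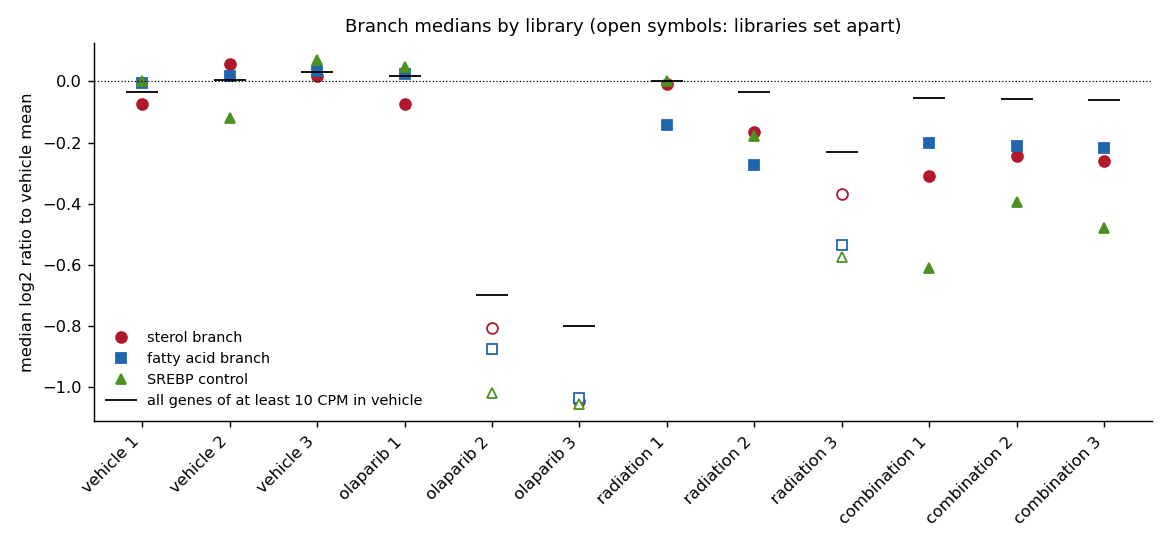
Median log2 ratio to the vehicle mean for the sterol branch, the fatty acid branch and the SREBP control genes in each library, with open symbols for the libraries with high background; black dashes are the median of all 8358 genes of at least 10 CPM in vehicle. The 3 combination libraries hold all 3 medians below their dash at about -0.06, with the control genes lowest of the 3, and in the open libraries the dash itself lies lower, at -0.70, -0.80 and -0.23.

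After radiation alone none of the 35 genes passed the threshold. In edgeR 0 were called against vehicle, where 0.678% of all genes fell and 0.42% rose. DESeq2 and limma-voom called 0 as well. In edgeR 6 of the 35 had an unadjusted p under 0.05, beside 2997 of all 30967 genes. The smallest adjusted p was that of IDI1, whose 2 radiation libraries lay above vehicle (log2 0.34, SE 0.12, adjusted p = 0.204). SREBF2 followed (log2 -0.29, SE 0.104, adjusted p = 0.229), then SCD (log2 -0.18, adjusted p = 0.36) and FASN (log2 -0.27, SE 0.116, adjusted p = 0.388). In 7 genes both radiation libraries lay below vehicle and in 1 above, beside 13.5% and 11.7% of all genes. The median log2 change was -0.08 for the sterol and -0.18 for the fatty acid branch. Without scaling factors IDI1 was called higher (log2 0.45, adjusted p = 0.0299), beside 1.81% of all genes higher and 0.404% lower, and the medians were 0.03 and -0.07.

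Olaparib alone had 1 library in the fit, assumed to vary like the other groups. None of the 35 genes was called in edgeR, DESeq2 or limma-voom, and 0 had an unadjusted p under 0.05 in edgeR, where 0.0581% of all genes fell and 0.00969% rose. The median log2 change of the 35 was -0.03. INSIG1 (log2 -0.09, SE 0.115), FDFT1 (-0.15, SE 0.11) and STARD4 (-0.12, SE 0.142), which were low in the combination, lay within 2 SE of vehicle in olaparib 1. With 11 genes below all vehicle libraries and 10 above, beside 21.1% and 24.4% of all genes, this library showed no common direction.

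The combination was then set against radiation, which asks what olaparib added to irradiated cells. The genes that fell came from every group but fatty acid synthesis: HMGCS1 of the first steps (log2 -0.37, SE 0.0887, adjusted p = 0.0214), FDFT1 of the sterol steps (log2 -0.39, SE 0.0861, adjusted p = 0.0106), INSIG1 of SREBP control (log2 -0.57, SE 0.0911, adjusted p = 7.5e-05) and STARD4 of transport (log2 -0.57, SE 0.112, adjusted p = 0.00189). These 4 of 35 fell and 0 rose, where 0.426% of all genes, and 1.48% of those of at least 10 CPM, fell and 0.142% rose. SREBF1 (log2 -0.46, adjusted p = 0.0649), IDI1 (log2 -0.44, adjusted p = 0.0736) and MSMO1 (log2 -0.54, adjusted p = 0.0766) lay just outside the threshold. All 3 combination libraries lay below both radiation libraries in 16 genes and above in 0, beside 11.9% and 12.2% of all genes.

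No fatty acid gene was called in this comparison by edgeR, DESeq2 or limma-voom. In edgeR 1 of the 7 had an unadjusted p under 0.05, beside 2954 of all 30967 genes. Among the 7 the smallest adjusted p was that of FASN (log2 -0.26, SE 0.116, adjusted p = 0.429). The median was -0.22 for the sterol, -0.05 for the fatty acid branch and -0.46 for the control genes, and that of the fatty acid branch turned to 0.04 without scaling factors, a setting under which 2 of 35 genes (INSIG1 and STARD4), 0.187% of all genes lower and 0.459% higher were called. Leaving out radiation 1 or radiation 2 leaves 1 radiation library that is assumed to vary like the other groups. None of the 4 calls held in edgeR without radiation 1, where fewer of all genes were called as well. Without radiation 2 all 4 held, and more of the 35 and of all genes were called. The log2 changes without radiation 1 were -0.58 for STARD4 (SE 0.137, adjusted p = 0.0591), -0.45 for INSIG1 (SE 0.108, adjusted p = 0.063), -0.32 for FDFT1 (SE 0.104, adjusted p = 0.367) and -0.26 for HMGCS1 (SE 0.107, adjusted p = 0.622).

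The interaction term asks whether the combination differs from the sum of both single treatments on the log2 scale. It called 0 of 35 genes in edgeR, where 0.103% of all genes were lower and 0.0969% higher. An unadjusted p under 0.05 was reached by 5 of the 35, beside 2223 of all 30967 genes. limma-voom called 0. DESeq2 called INSIG1 (log2 -0.48, adjusted p = 0.0364), beside 115 of all genes lower and 54 higher. In edgeR 32 of all genes were lower and 30 higher, and INSIG1 had a log2 value of -0.48 with an SE of 0.145 and an adjusted p of 0.227. The smallest adjusted p in edgeR was that of SREBF1 (log2 -0.67, SE 0.195, adjusted p = 0.209). This term rests on the single library olaparib 1. Without vehicle 3 SREBF1 was called (log2 -0.78, adjusted p = 0.0492), in a fit where 61 of all genes were lower and 65 higher. Without radiation 2 the log2 value of INSIG1 was -0.61.

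The 3 libraries with high background had lower levels of nearly the whole pathway. Below the vehicle mean stood 32 of 35 genes in olaparib 2, 34 in olaparib 3 and 32 in radiation 3. INSIG1 was at 48.4, 37.6 and 61.6 CPM there, FDFT1 at 64, 46.2 and 86.7, SCD at 165, 161 and 298, and CYP51A1 at 159, 134 and 230. FADS2 was the exception among the fatty acid genes, at 3.25, 5.13 and 2.06 CPM. The sterol medians were -0.81, -1.05 and -0.37 and the fatty acid medians -0.88, -1.04 and -0.54. All genes of at least 10 CPM in vehicle were also lower in these libraries, with medians of -0.70, -0.80 and -0.23.

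When these libraries were put into the fit, the changes of the combination against vehicle kept their size and the error grew. INSIG1 had a log2 change of -0.70 with an SE of 0.298 in place of 0.0826 (adjusted p = 1), 0 of 35 genes were called in edgeR, and 4 had an unadjusted p under 0.05. Of all genes 0.00314% were then called higher and 0% lower, and 1262 of 31858 had an unadjusted p under 0.05. DESeq2 and limma-voom were not run on all 12 libraries. With the log of the olfactory receptor level as a covariate over all 12 libraries, 7 of the 11 were called: FDFT1 (log2 -0.42), MSMO1 (-0.68), INSIG1 (-0.57), SREBF1 (-0.40), SREBF2 (-0.39), STARD4 (-0.50) and FASN (-0.43). Of all genes 1.17% were lower and 1.43% higher under this setting, so that more were higher than lower, the reverse of the fit to 9 libraries. Against radiation the same setting called 1 of 35 genes, INSIG1 (log2 -0.46, adjusted p = 0.0361), beside 0.0691% of all genes lower and 0.0188% higher.

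Of 45 further genes around the pathway, listed with earlier results of these data known, 3 fell and 1 rose in the combination against vehicle, where 3.26% of all genes, and 11.2% of those of at least 10 CPM, fell and 1.53% rose. Among 8 genes of SREBP cleavage and sterol-regulated degradation, 2 fell. MBTPS2, the protease of the second SREBP cut, went from 50.4 CPM (SD 2.53, n = 3) to 39.2 CPM (SD 1.72, n = 3), with a log2 change of -0.36 (SE 0.0996, adjusted p = 0.0156). MBTPS2 was also lower in radiation, at 36.8 CPM (SD 1.84, n = 2) and log2 -0.45 (SE 0.112, adjusted p = 0.017), and stood at 37.6 CPM in olaparib 1.

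Of 19 genes of acetyl-CoA supply, elongation and glycerolipid synthesis, ELOVL5, an elongase of polyunsaturated fatty acids, rose from 269 CPM (SD 21, n = 3) to 317 CPM (SD 8.83, n = 3; log2 0.24, SE 0.0683, adjusted p = 0.0229). ACSL3, which activates fatty acids, fell from 163 CPM (SD 9.66, n = 3) to 136 CPM (SD 7.59, n = 3; log2 -0.27, SE 0.0742, adjusted p = 0.0162). None of the 8 genes of LXR and cholesterol efflux or esterification, with 0 at an unadjusted p under 0.05, and none of the 10 of the dolichol, ubiquinone and prenylation branches, with 1, were called in edgeR, and DESeq2 and limma-voom called none of these 18 either. In this comparison 4445 of all 30967 genes had an unadjusted p under 0.05 in edgeR. The median log2 change of the 45 was -0.05. In radiation against vehicle 1 of the 45 fell (MBTPS2) and 1 rose, RABGGTB, a subunit of the enzyme that prenylates Rab proteins (log2 0.39, SE 0.095, adjusted p = 0.0148), beside 0.678% and 0.42% of all genes. In the combination against radiation edgeR, DESeq2 and limma-voom called 0 of the 45. In edgeR 7 had an unadjusted p under 0.05, beside 2954 of all 30967 genes.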

How the data were processed

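RNA-seq libraries were made from total RNA with a stranded kit, per the labels' protocols, and the authors deposited expected counts (estimated counts, with fractions) per Ensembl gene. Per the submitters' processing notes, kallisto 0.46.1 and DESeq2 were used. The transcriptome release is not given in the sources used here, nor is the build. Of the values, 68.8% were whole to within 1e-06. The 60649 rows became 60605 genes after 44 rows of pseudoautosomal copies were added to their counterparts, and 60463 had a symbol.

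Counts were rounded and analysed in R 4.3.3 with edgeR 4.0.16 over all genes: filterByExpr (30967 genes kept), TMM scaling, 1 mean per group, robust quasi-likelihood tests, Benjamini-Hochberg adjusted over every gene kept, and calls at an adjusted p under 0.05. The fit used 9 libraries, and olaparib 2, olaparib 3 and radiation 3 were set apart and placed on the same CPM scale. Medians by library used log2(CPM + 0.1). The statistics were tested on simulated data with the same dispersion for every gene and no background difference between libraries. Such data cannot show how the tests behave where background differs. The genes, lists, motifs and the choice of 9 libraries were made with earlier results of these data known. Values in every library are given for genes called in the combination or radiation comparisons and for all control and fatty acid genes, and HMGCS1, IDI1, ACAT2 and CYP51A1 are given in addition where not covered by that rule, after their values were seen. Of the other lists, at most 3 called genes each are named, and some items are not reported here. Alternatives were other scaling, count filters, DESeq2 1.42.0, limma-voom (limma 3.58.1), the compared groups alone, a replicate block, all 12 libraries with and without a background covariate, and each library left out. Same-numbered libraries did not deviate together (correlations of -0.0774 to 0.0204). With 2 or 3 libraries per group this cannot decide whether the numbers pair them, and the main fit used no pairing.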

Additional observations from a re-analysis of the deposited data

Results flagged for a closer look

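Olfactory receptor genes carried more signal in 3 libraries than in any vehicle library, where the highest summed level was 432.6 CPM. The sum was 1897 CPM in olaparib 2, 2098 CPM in olaparib 3 and 920.2 CPM in radiation 3. The values of the pathway genes in these libraries are given apart for that reason. The part of this background in their lower pathway levels was not tested.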

How the results depend on the processing

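In the combination against vehicle, where 11 of the 35 genes were called, 0 were called with all 12 libraries and 7 with all 12 libraries and the background covariate. Leaving out 1 vehicle, olaparib or combination library gave 9 to 11, beside 690 to 923 of all genes lower, where the main fit had 1010. Without radiation 1 or radiation 2 every call was kept. In the combination against radiation, where 4 were called, the counts were 0 with all 12 libraries, 1 with the covariate, 2 with library size only, 2 with the compared groups alone, 7 without a count filter, 7 in DESeq2, and 0 to 8 when 1 library was left out. For the combination against radiation the main fit called 132 of all genes lower and 44 higher. These numbers were 178 and 100 without a count filter and 354 and 58 in DESeq2, so all-gene calls rose there too. They were 58 and 142 with library size only and 46 and 18 with the compared groups alone. With 1 library left out, the extremes came without radiation 1 and without radiation 2, where fewer and more of all genes were called. Radiation against vehicle had 1 call with library size only and 0 in the other fits. The interaction had 1 call in DESeq2, beside 115 of all genes lower, where the main fit had 32. With the replicate block it had 1 (SREBF1, log2 -0.84, adjusted p = 0.0466), beside 37 of all genes lower. Leaving out 1 vehicle or combination library gave 0 to 1, beside 19 to 61 of all genes lower. The replicate block gave 11 calls in the combination against vehicle and 5 against radiation, where SREBF1 was added; it changed no other call of the 35 genes. Of 20 alternatives, 19 kept the calls of INSIG1, FDFT1, MSMO1, SREBF1, SREBF2, STARD4 and FASN against vehicle, and 17 kept SC5D, 16 SCD, 15 SQLE and 10 HSD17B7. No called change turned its sign. The cause of these shifts was not tested. The 1 olaparib and 2 radiation libraries limit the precision of every value for these groups, and genes under 10 CPM have large errors.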
